A study of Mus musculus with 5 samples.

Results

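The Ube3a and Snhg14 imprinted region of mouse chromosome 7 was examined in testis RNA, for long non-coding RNAs (lncRNAs) and circular RNAs (circRNAs). Members were taken by position: lncRNA transcripts whose lower coordinate lay between 59000000 and 62500000, circRNAs starting in that range, and circRNAs whose host gene was Ube3a. This gave 21 of 33057 lncRNA transcripts, at 11 of 16356 loci, and 10 of 11957 circRNAs, 7 of them from Ube3a. The members were chosen by position, and the interval itself was selected on 2 measured differences between triptolide and control libraries. The lncRNA locus XLOC_166264 was lower after triptolide, and 1 Ube3a circRNA was listed at 0 in both control libraries. The values of that locus and that circRNA are therefore a description, with no test. Of the other members, 2 loci, 5 transcripts and 1 circRNA were tested. A further circRNA passed the filter through triptolide libraries alone and is given without a test, and the rest stayed below the filters on low values. Just outside the interval, XLOC_172407 on the low side had 0, 4 and 0 expected counts in triptolide libraries and 0 and 0 in control libraries, and XLOC_172808 on the high side had 0, 6 and 0 against 0 and 0. Of the nearest loci inside, XLOC_172412 at the low end had 2, 0 and 0 counts in triptolide libraries and 0 and 0 in control libraries, and XLOC_172676 at the high end had 3, 6 and 2 against 10 and 5.

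The animals were male C57BL/6J mice (C57/BL6J in the labels) of 10 weeks. The triptolide group received 50 µg of triptolide per kg of body weight daily by the intragastric route, and the control group received saline. Testes were taken at 35 days from groups of 6 mice, per the labels. Triptolide, a diterpenoid of the vine Tripterygium wilfordii, is known as an inhibitor of transcription. RNA freed of ribosomal RNA was sequenced in 3 triptolide and 2 control libraries with a directional kit. Whether single or pooled animals made a library is not labelled, and the p-values therefore reflect the spread among these libraries alone. Where groups are said to overlap or not, that only describes 3 triptolide and 2 control libraries. The share of all features whose groups do not overlap was not counted. Because columns of the lncRNA table share a header, 2 triptolide libraries are called A and B there beside triptolide 3. The triptolide libraries of the circRNA table are called X, Y and Z, since they share a header too, and the letters of the tables do not correspond.

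Ube3a encodes a ubiquitin ligase, an enzyme that tags other proteins for degradation, and its loss in neurons causes Angelman syndrome. In neurons only the maternal copy is expressed, because a very long transcript made from the paternal copy, Snhg14, runs antisense through Ube3a. Snhg14 also carries the Snord115 and Snord116 small nucleolar RNAs, whose paternal loss is tied to Prader-Willi syndrome. Snrpn and Snurf share a transcript whose start is the imprinting centre of the domain, and Ndn, Magel2, Mkrn3 and Peg12 are paternally expressed genes farther along. The RefSeq table for GRCm38.p6 lists 254 genes starting in the interval, of which 206 are small nucleolar RNA genes, 13 microRNA genes, 10 lncRNA genes and 8 protein-coding genes.

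Of the promoters of this domain, 3 are shown because an antisense lncRNA described below crosses that of Ube3a, while the other 2 start the Snhg14 and Snrpn transcripts, whose lncRNA and circRNA reads were few. The sequences are RefSeq's, in build GRCm38.p6, 300 bases each, and are printed from 5′ to 3′ on the strand of the gene. Capitals mark CG dinucleotides, GC boxes (GGGCGG) and CCAAT boxes on either strand, and a GC box overlaps the CG within it. A TATAAA sequence was also searched for on either strand and was found in none of the 3.
Ube3a, chr7:59228500-59228799, plus strand: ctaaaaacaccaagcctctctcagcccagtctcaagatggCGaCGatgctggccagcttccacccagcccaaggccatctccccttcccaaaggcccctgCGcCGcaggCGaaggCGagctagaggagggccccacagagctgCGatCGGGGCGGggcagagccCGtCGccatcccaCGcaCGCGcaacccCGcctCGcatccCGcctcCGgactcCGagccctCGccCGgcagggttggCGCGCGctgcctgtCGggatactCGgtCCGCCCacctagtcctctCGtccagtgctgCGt
Snurf, shared with Snrpn, chr7:60005150-60005449, minus strand: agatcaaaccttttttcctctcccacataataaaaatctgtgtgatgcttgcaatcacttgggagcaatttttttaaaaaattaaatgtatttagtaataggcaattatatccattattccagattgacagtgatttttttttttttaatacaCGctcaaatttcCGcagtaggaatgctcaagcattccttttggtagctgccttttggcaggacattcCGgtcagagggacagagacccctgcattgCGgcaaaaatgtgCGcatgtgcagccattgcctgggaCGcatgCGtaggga
Snhg14, shared with the upstream start of Snrpn, chr7:60450128-60450427, minus strand: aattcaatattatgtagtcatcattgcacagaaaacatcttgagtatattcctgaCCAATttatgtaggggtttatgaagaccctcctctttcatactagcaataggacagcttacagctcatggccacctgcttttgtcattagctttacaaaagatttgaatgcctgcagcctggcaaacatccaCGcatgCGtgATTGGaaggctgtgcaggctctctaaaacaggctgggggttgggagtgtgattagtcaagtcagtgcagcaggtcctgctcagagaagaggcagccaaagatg

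The Ube3a window holds 29 CG dinucleotides and 2 GC boxes at 69.0% G and C. The Snurf window holds 7 CG dinucleotides at 40.3% G and C, and the Snhg14 window 2 CG dinucleotides and 2 CCAAT boxes at 45.0%. Among 32851 RefSeq mouse promoters of the same length, 12.9% have at least as many CG dinucleotides as Ube3a, 52.1% at least as many as Snurf and 85.9% at least as many as Snhg14. A GC box is present in 35.7% of those promoters, a CCAAT box in 37.4% and a TATAAA sequence in 13.6%. These letters describe the windows only, and no methylation or factor binding was measured.

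**Figure D1:**
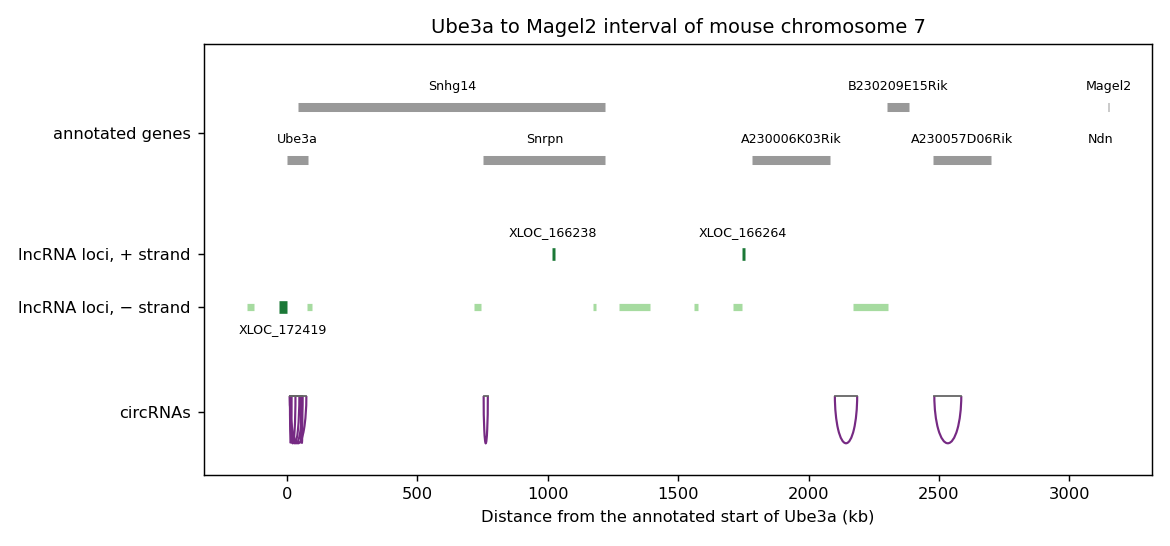
The map places the 11 lncRNA loci (green, by strand, dark where the 5 libraries sum to 100 counts or more) and the 10 circRNAs (purple arcs joining the 2 ends of each back-splice) along the interval, in kilobases from the annotated start of Ube3a, under the main annotated genes in grey. The 3 loci with most reads lie at the Ube3a start, inside the Snrpn and Snhg14 span and beyond it, while 7 of 10 circRNAs lie within Ube3a and no lncRNA locus starts near Ndn or Magel2.

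Depth was similar among libraries. The lncRNA table sums to 947298 to 1058427 expected counts in triptolide libraries and to 964886 and 1071012 in control libraries. A count of 0 there allows a level of up to 3 counts, or 2.80 to 3.17 CPM (counts scaled to the total of that table), for counting error only. The circRNA values, SRPBM, are reads across the back-splice junction relative to mapped reads, and correspond to 32846 to 44354 junction reads in triptolide libraries and 40043 and 43715 in control libraries. A single junction read is worth 8.25 to 9.5 SRPBM and no value below 2 reads is listed, so no limit is given for a circRNA listed at 0. As a check of the tissue, 8 of 12 germ cell marker genes gave circRNAs, with summed levels of 5781 to 8166 SRPBM in triptolide libraries and 7260 to 8524 in control libraries, which overlap. Within that list, Prm2, a protamine of late spermatids, summed to 52 to 86 SRPBM in triptolide libraries against 290 and 703 in control libraries, and Tex14, needed for the bridges between germ cells, to 69 to 96 against 169 and 261. The groups overlapped for the other 6, of which Spag16 had the higher mean in triptolide libraries (1329 against 1157 SRPBM), as did Ddx4 (238 against 210.5) and Crem (513 against 502). Dnah8, Sycp1 and Sycp2 had the lower mean there, while no circRNA was listed for Prm1, Tnp1, Tssk1 and Piwil1. Of 5 tested lncRNA loci with the symbol of a germ cell marker, 0 were called by edgeR, with a median log2 fold change of −0.08 and 2 loci at an unadjusted p under 0.05. Over all 6888 loci tested, edgeR called 7.27%, and 21.7% had an unadjusted p under 0.05. Tex14 gave its symbol to 2 of these loci. XLOC_033006 was at 10.6, 25.5 and 12.6 CPM in triptolide libraries and 7.25 and 3.73 CPM in control libraries (adjusted p = 0.14 by edgeR). The other, XLOC_033008, had the higher mean count (64.8 against 12.2) and a log2 fold change of −0.30. The loci of Sycp1 and Sycp2 had log2 fold changes of −0.44 and −0.08, and that of Dnah8 had 0.83. None of the 6 Sertoli and 5 Leydig cell markers gave a circRNA. Star, which carries cholesterol into mitochondria in Leydig cells, gave its symbol to XLOC_181926, at 33.8, 36.8 and 42.7 CPM in triptolide libraries and 52.9 and 57.9 CPM in control libraries. The groups do not overlap, and the log2 fold change of −0.55 ± 0.29 (SE) had an adjusted p of 0.28 by edgeR. The part of these markers in the results on this region was not tested. Of 8 neuronal markers only Syt1 and Map2 gave circRNAs, summing to 34 to 95 SRPBM in triptolide libraries and 33 and 35 in control libraries. No circRNA was listed for Rbfox3, Nefl, Snap25, Tubb3, Gad1 and Gad2.

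The known lncRNA loci of Snhg14, the neuronal silencer of Ube3a, were barely detected. They span 16226 and 26828 bases of an annotated gene of 1177441 bases, so the whole transcript was not measured. XLOC_172422, a known Snhg14 transcript of 3 exons that overlaps the 3′ end of Ube3a in antisense (59307924 to 59324149), had 1, 2 and 2 counts in triptolide A, B and 3 and 0 and 2 in control libraries. XLOC_172643, a known Snhg14 transcript of 6 exons (59946630 to 59973457), had 0, 1 and 5 counts in triptolide libraries and 1 and 0 in control libraries. Together they made 1, 3 and 7 counts in triptolide libraries and 1 and 2 in control libraries. The groups overlap, most values are at or under 3 counts, and no difference was detectable at this depth. In bulk tissue, fewer cells of a type and less RNA per cell cannot be told apart, here and in all values that follow.

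At the other end of Ube3a, an antisense lncRNA was well detected and did not pass the test. XLOC_172419 lies on the minus strand (59197791 to 59229224), in 6 assembled transcripts of 2 or 3 exons that the authors did not list as known. Their upper ends lie 293 to 474 bases inside the annotated Ube3a gene, so the transcripts begin within its 5′ end and run back across the promoter printed above. It had 150, 158 and 144 counts in triptolide A, B and 3, against 209 and 179 in control libraries. On the CPM scale it averaged 149 ± 9.24 in triptolide libraries and 192 ± 35.0 in control libraries (SD, n = 3 and n = 2). Every triptolide library lay below both control libraries on that scale. The log2 fold change was −0.36 ± 0.20 (SE), with an adjusted p of 0.32 by edgeR's quasi-likelihood test. The sources used here do not give the strand setting of the counting, and reads from the 5′ end of Ube3a itself cannot be told apart for certain. The Ube3a mRNA is not analysed here, since the mRNA table pairs no transcript with a gene.

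The main transcript of this antisense locus did not separate the groups. This transcript, TCONS_00292105, held 56.2, 61.9 and 47.7% of the locus count in triptolide A, B and 3 and 52.7 and 53.0% in control libraries. TCONS_00292102 begins closer to the annotated Ube3a start, 295 bases inside the gene against 474 for the main transcript. It had 11.5, 9.45 and 3.89 counts in triptolide libraries and 20 and 19.3 in control libraries. The groups do not overlap, but the log2 fold change of −1.25 ± 0.64 had an adjusted p of 0.59 by edgeR. The other 3 tested transcripts had log2 fold changes of −0.52, −0.28 and 0.02, with adjusted p-values of 0.79 or more by edgeR.

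A second lncRNA lies inside the annotated span of Snrpn and Snhg14, on the strand opposite to theirs. XLOC_166238 (60244498 to 60248845, plus strand) has 5 transcripts of 3 or 4 exons, none listed as known. It had 42, 49.0 and 25 counts in triptolide A, B and 3 and 63 and 53 in control libraries, which is 38.3 ± 12.2 CPM in triptolide libraries and 57.4 ± 11.2 CPM in control libraries (SD, n = 3 and n = 2). All 3 triptolide libraries lay below both control libraries in CPM, with triptolide 3 lowest. The log2 fold change was −0.58 ± 0.31 (SE) with an adjusted p of 0.28 by edgeR's quasi-likelihood test. TCONS_00280703 carried most of it, at 72.0, 84.3 and 44.2% of the locus count in triptolide libraries and 85.8 and 86.0% in control libraries. The log2 fold change of this transcript, −0.86 ± 0.57 (SE), had an adjusted p of 0.69 by edgeR. In triptolide 3, TCONS_00280705 held 34.9% with 8.72 counts, and it was at 0 in the other 4 libraries.

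Neither testable locus was thus called, and how many of all loci separate the groups as these 2 do was not counted. Of all 6888 loci tested, edgeR called 7.27% at an adjusted p under 0.05, 5.01% higher and 2.26% lower in triptolide libraries, against 0 of these 2 loci. At an unadjusted p under 0.05 it was 21.7% of all loci and 0 of the 2, and DESeq2 called 5.46% of all loci and again 0 of the 2. For single transcripts, edgeR called 0% of the 13534 tested and 0 of the 5 members, with 9.89% of all and 0 members below 0.05 before adjustment. DESeq2 called 2.42% of the transcripts and 0 members. The median log2 fold change over all loci was 0.00.

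The most abundant lncRNA of the interval was XLOC_166264, the locus whose level chose the interval. It is a single transcript of 2 exons, TCONS_00280732, on the plus strand (60973923 to 60977999), intergenic and not listed as known. Its count and FPKM together imply an effective length of 2023 to 2051 bases once spliced. It lies beyond the annotated Snhg14 and Snrpn span, 34040 bases past Gm29729 and 32266 bases before A230006K03Rik, which are annotated lncRNA genes. It had 390, 395 and 390 counts in triptolide A, B and 3, against 1036 and 1023 in control libraries. This is 412, 373 and 378 CPM in triptolide libraries and 1073 and 955 CPM in control libraries, with means of 388 ± 21.2 and 1014 ± 83.7 (SD, n = 3 and n = 2). The level in control libraries was 2.62-fold that in triptolide libraries, a log2 fold change of −1.38, and no library of either group came near the other group.

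Its place among all loci is given as a description. Of 6888 tested loci, 78 (1.13%) had a lower log2 fold change, and of the 356 loci with a mean count of at least 500, a limit chosen after its value was seen, 0 did. The plot of fold change against abundance shows where the 3 tested loci of the interval lie. Per length, in the authors' FPKM for the libraries whose column could be matched to a sample, XLOC_166264 had 184 FPKM in triptolide 3 and 531 and 470 FPKM in control libraries. XLOC_172419 followed with 128 FPKM in triptolide 3 and 194 and 146 FPKM in control libraries, and XLOC_166238 with 55.2 FPKM in triptolide 3 and 124 and 75.4 FPKM in control libraries. The order of the 3 loci was the same in these 3 libraries, and the gap at the top was narrower in triptolide 3.

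**Figure D2:**
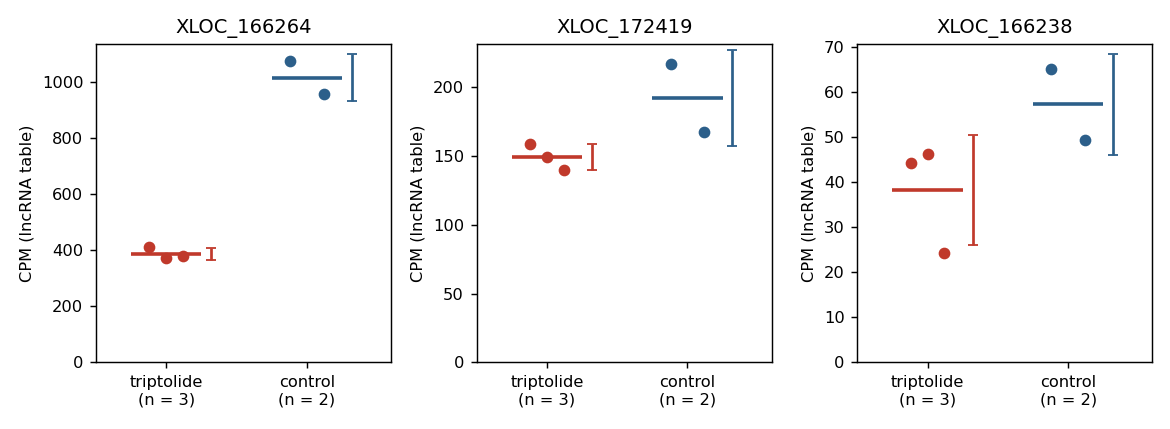
Each panel gives CPM of 1 lncRNA locus per library (points), with the group mean (line) and its SD (bar beside it), for 3 triptolide libraries in red and 2 control libraries in blue. The gap between the groups is wide for XLOC_166264 (388 against 1014 CPM), while for XLOC_172419 and XLOC_166238 the lowest control library lies just above the highest triptolide library.

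**Figure D3:**
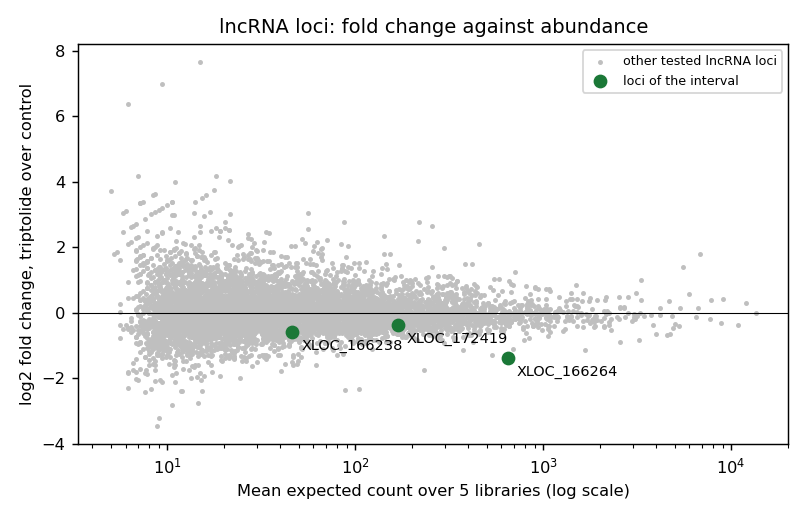
The log2 fold change, triptolide over control, is plotted against the mean expected count over the 5 libraries (log axis) for all 6888 tested lncRNA loci in grey and the 3 of the interval in green. XLOC_166264, which was chosen for being lower after triptolide, lies at −1.38, and 78 of all tested loci lie below it. None of those has a mean count of 500 or more, a limit set after its value was seen. The other 2 loci of the interval lie within the cloud.

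A pair of loci meet at the start of XLOC_166264. XLOC_172668 runs on the minus strand (60939755 to 60973837) and faces it head to head across 85 bases. Of its 2 transcripts only TCONS_00292380 reaches the gap, with 3, 1 and 0 counts in triptolide A, B and 3 and 0 and 0 in control libraries. The other, TCONS_00292379, has its upper end at 60961284 and had 1 count, in control 2. The 2 directions from this gap were thus very unequal in reads in every library. A change of XLOC_172668 was not detectable at this depth.

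The remaining loci were sparse. XLOC_172676, an assembled transcript of 8 exons over 134294 bases that crosses B230209E15Rik, had 3, 6 and 2 counts in triptolide libraries and 10 and 5 in control libraries, which overlap. XLOC_172649 and XLOC_172657 were at 0 in all triptolide libraries and had 3 and 0 in control libraries, and XLOC_172664 was at 0 in all triptolide libraries with 0 and 5 in control libraries. XLOC_172649 overlaps the annotated Snhg14 on the same strand, is not listed as known, and is not part of the Snhg14 counts above. No lncRNA locus starts above XLOC_172676 within the interval, so Ndn, Magel2, Mkrn3 and Peg12 have none.

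Summed over the 11 loci, linear lncRNA of the interval was 624, 578 and 551 CPM in triptolide libraries and 1373 and 1184 CPM in control libraries. The means were 584 ± 36.9 in triptolide libraries and 1278 ± 134 in control libraries (SD, n = 3 and n = 2), a log2 ratio of −1.13, and the groups did not overlap. XLOC_166264 made up 66.0, 64.5 and 68.6% of that sum in triptolide libraries and 78.2 and 80.7% in control libraries. That locus was chosen for being lower after triptolide, so including it had to lower the ratio. The −1.13 and the width of the gap largely restate that choice. Without XLOC_166264 the sum was 212, 205 and 173 CPM in triptolide libraries and 229 and 299.5 CPM in control libraries, a log2 ratio of −0.43.

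The circular RNAs of the interval came mostly from Ube3a. A circRNA forms when a downstream splice donor joins an upstream acceptor, and only reads across that junction are counted, so the span does not enter the value. All 7 Ube3a circRNAs use 1 of 2 starts: 5 share position 59240967, which is 12217 bases inside the gene, and 2 share position 59284680. The end 59288780 is used with both starts.

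The 6251-base circle from 59240967 to 59247217 was present in every library. It had 47, 115 and 34 SRPBM in triptolide X, Y and Z and 96 and 124 SRPBM in control libraries, or 5, 13 and 4 reads against 11 and 15. The means were 65.3 ± 43.5 in triptolide libraries and 110 ± 19.8 in control libraries (SD, n = 3 and n = 2), and the groups overlap because triptolide Y was as high as control libraries. On the log2(SRPBM + 16) scale the difference was −0.75 ± 0.54 (SE), with an adjusted p of 0.68 by limma.

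The 21092-base circle from the same start to 59262058 is the member that was chosen for its difference. It had 57, 62 and 95 SRPBM in triptolide X, Y and Z, from 6, 7 and 11 reads, and was listed at 0 in both control libraries. Its mean in triptolide libraries was 71.3 ± 20.6 SRPBM (SD, n = 3), about the level of the 6251-base circle there. The meaning of a 0 in this table is not stated in the sources, and no fold change is given.

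The other 5 Ube3a circles each had few reads. From 59284680, the 4101-base circle had 0, 44 and 26 SRPBM in triptolide X, Y and Z and was listed at 0 in both control libraries. It passed the filter through triptolide libraries alone, so it had to be higher there, and no difference or p is given. The 1580-base circle had 0, 44 and 0 SRPBM in triptolide libraries and was listed at 0 in control libraries. From the shared start at 59240967, the 47814-base circle had 0, 26 and 0 SRPBM in triptolide libraries and was listed at 0 in control libraries. The 36048-base and 62845-base circles were listed at 0 in triptolide libraries and had 24 and 16 SRPBM in control 2 alone.

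**Figure D4:**
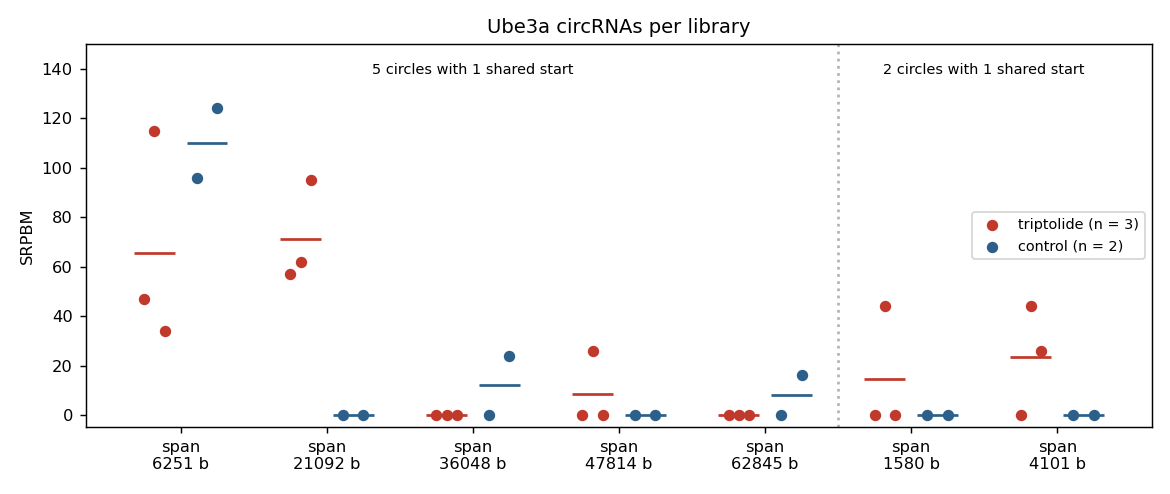
SRPBM of the 7 Ube3a circRNAs per library (points) with group means (lines), 3 triptolide libraries in red and 2 control libraries in blue, ordered by start and then by span in bases (b). The 6251-base circle overlaps between groups, the 21092-base circle is at 57 to 95 SRPBM in triptolide libraries and at 0 in both control libraries, and the others reach at most 44 SRPBM.

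Limma called 0% of the 5457 circRNAs tested at an adjusted p under 0.05, and the 6251-base circle was not called. At an unadjusted p under 0.05 it was 6.6% of all, and again not that circle. Summed over Ube3a, circular RNA was 104, 291 and 155 SRPBM in triptolide libraries and 96 and 164 SRPBM in control libraries, with means of 183 ± 96.7 and 130 ± 48.1 (SD, n = 3 and n = 2). These overlap, and triptolide Y stands above the rest. Without the 6251-base circle the sums were 57, 176 and 121 SRPBM in triptolide libraries and 0 and 40 SRPBM in control libraries, of which the chosen circle was 57, 62 and 95 SRPBM in triptolide libraries. Triptolide Y also had the most junction reads of the 5 libraries, and the number of interval circles above 0 was 2, 5 and 4 in triptolide X, Y and Z and 2 and 4 in control libraries. The part of depth in those numbers was not tested.

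Hosts with as many circles as Ube3a were not rare. Of 3446 named host genes, 362 (10.5%) had at least the 7 circRNAs of Ube3a, against a median of 2 per host. Of the 83 hosts with 7, 11 including Ube3a had at least 5 circles with 1 shared start, and 18 had at least 5 with 1 shared start or 1 shared end.

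Outside Ube3a the interval gave 3 circRNAs, each in 1 library. A circle over the Snrpn and Gm38393 genes (59983369 to 59999413) was listed at 0 in triptolide libraries and had 24 SRPBM in control 2. A circle without a named host (61329639 to 61415158), whose start is the annotated lower end of Gm31652 and which ends within XLOC_172676, had 26 SRPBM in triptolide Z and was listed at 0 elsewhere. The third, also without a host (61710899 to 61814190), was listed at 0 in triptolide libraries and had 35 SRPBM in control 1. It overlaps A230057D06Rik and holds 5 of the 13 annotated Mir344 hairpins, Mir344d-3, Mir344e, Mir344h-1, Mir344h-2 and Mir344b.

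Over all 10 circles the interval summed to 104, 291 and 181 SRPBM in triptolide libraries and 131 and 188 SRPBM in control libraries. The log2 ratio of the means was 0.27 and the groups overlap. That sum includes the 21092-base circle, and without it the interval had 47, 229 and 86 SRPBM in triptolide libraries and 131 and 188 SRPBM in control libraries, a log2 ratio of −0.40 with overlap. The sign also turned without triptolide Y, to −0.16. The 21092-base circle was chosen for being listed at 0 in both control libraries, so leaving it out had to lower the circular ratio. The −0.40 is therefore not set beside the ratio of the linear sum. Linear and circular values come from separately scaled tables with different denominators and filters, so their levels are not compared. The linear reads lay mainly at XLOC_166264 and the circular reads at Ube3a, and no lncRNA locus or circRNA starts at Ndn, Magel2, Mkrn3 or Peg12.

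Among the HECT ubiquitin ligases, the enzyme family of Ube3a, 20 of 27 genes gave circRNAs. Ube3a ranked second in both groups by summed SRPBM, after Trip12, another ligase of the family, at 531, 634 and 596 in triptolide libraries and 506 and 477 in control libraries, which do not overlap. Hectd2 was next by triptolide mean, with 103 ± 50.9 SRPBM in triptolide libraries and 89.5 ± 46.0 in control libraries (SD, n = 3 and n = 2). By control mean it ranked only 7th, while Herc2 had 122.5 ± 10.6 SRPBM and Herc1 113 ± 12.7, just below Ube3a at 130 ± 48.1. In control 1, Ube3a was at 96 SRPBM, below Herc2 at 130, Hectd2 at 122, and Herc1 and Ube3c at 104 each. The spreads of Ube3a and Hectd2 overlap, so their order is not fixed by these libraries, whereas Trip12 was above both in every library. Of 84 circRNAs of the other 26 genes, 38 were tested and 0 were called by limma, with 3 at an unadjusted p under 0.05. Over all circRNAs these shares were 0% and 6.6%. The median log2 difference was −0.10, beside −0.06 over all circRNAs.

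**Figure D5:**
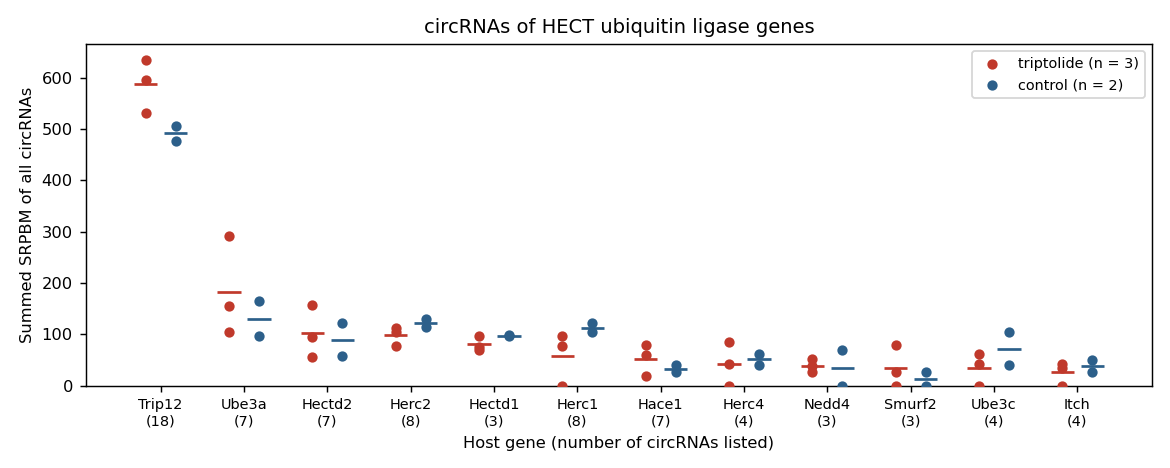
Summed SRPBM of all circRNAs per host gene and library (points) with group means (lines), for 12 of the HECT ligase genes that gave circRNAs, ordered by triptolide mean, triptolide in red and control in blue, with the number of circRNAs listed in brackets. Trip12 stands above 470 SRPBM in every library, and Ube3a, at 96 to 291, is next by mean.

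Herc2, a HECT ligase that binds Ube3a and stimulates it, is also a chromosome 7 gene of the block conserved with human 15q11-q13. Its 8 circles summed to 104, 113 and 77 SRPBM in triptolide libraries and 130 and 115 SRPBM in control libraries, which do not overlap but differ by little more than the spread within each group. Of 18 genes of that block outside the interval, Herc2, Tubgcp5, Chrna7 and Tjp1 gave 12 circRNAs, of which 6 were tested and 0 called, with 1 at an unadjusted p under 0.05. Of 8 partners of Ube3a, such as its E2 enzymes, Herc2 and Ube2d3 gave 9 circRNAs. Of these, 5 were tested and 0 called, with 1 at an unadjusted p under 0.05. Herc2 is in both lists. Limma called 0% of all circRNAs tested, with 6.6% at an unadjusted p under 0.05, so 0 called does not set these lists apart. Of 13 imprinted genes of the interval, only Ube3a and Snrpn gave circRNAs, and only Ube3a and Snhg14 gave their symbol to lncRNA loci.

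Loci elsewhere with the most similar pattern were sought over the 5 libraries, among 482 loci of similar mean CPM. XLOC_061928 on chromosome 14 had a Pearson r of 0.99 with XLOC_166264, at 339, 302 and 356 CPM in triptolide A, B and 3 and 818 and 821 CPM in control libraries. It was followed by XLOC_196012 on chromosome 9 (r = 0.98), at 834 to 949 CPM in triptolide libraries and 1333 and 1344 in control libraries, and XLOC_065330 on chromosome 14 (r = 0.98), at 297 to 352 against 488 and 506. With 5 libraries in 2 groups these values mostly restate the difference between the groups. For the 6251-base circle, the closest of 1318 circRNAs were a circle without a host on chromosome 13, 1 of Ccdc171 and 1 of Rtn4, with r of 0.98 or 0.99. The Rtn4 circle had 95, 186 and 78 SRPBM in triptolide X, Y and Z and 193 and 198 SRPBM in control libraries, so it too had triptolide Y near control libraries.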

How the data were processed

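RNA of mouse testis was measured in 3 triptolide and 2 control libraries. The members and lists were chosen with earlier results of these data known. The submitters' processing notes name HISAT2 2.0.1, HTSeq 0.6.1, DESeq and bedtools 2.17.0 without roles, and the human build hg19. The coordinates are those of mouse, since 9709 of 9796 circRNAs (99.1%) with a host in the RefSeq table lie inside that gene in GRCm38.p6. Coordinates are printed as the files give them, and that table served only for names, neighbours and distances.

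The authors deposited expected counts and FPKM per lncRNA transcript, per the file headers. The FPKM of short transcripts were high for their count, with an implied length down to 5.68 bases (TCONS_00292379), and they served only to set loci beside each other. For circRNAs the authors deposited a score, SRPBM rounded to whole numbers. It lies within 0.1 of a whole number of reads for 93.6 to 97.2% of nonzero entries. Samples were assigned to columns through the headers. Triptolide columns that share a header have no replicate number, and 2 FPKM columns were not used.

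Expected counts were summed per locus, rounded and put through the quasi-likelihood F test of edgeR 4.0.16 in R 4.3.3, with filterByExpr and TMM scaling, and transcripts likewise. SE were derived from the F statistic. Limma 3.58.1 with a trend was fitted to log2(SRPBM + 16) of circRNAs with a value above 0 in 2 or more libraries. This scale understates the change of low circRNAs. P-values were adjusted by Benjamini-Hochberg over all features tested, with a threshold of 0.05. Named items were every locus of the interval that passed the filter, XLOC_166264, and every circRNA. Sparse loci were added after their values were seen, so that each member is accounted for. Alternatives were DESeq2 1.42.0, limma-voom, other scalings, filters and pseudocounts, quantile normalization, and leaving out each library. The mRNA table was not used, and 1 item of the gene lists is counted but not reported here by name.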

Additional observations from a re-analysis of the deposited data

How the results depend on the processing

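No member was called under any alternative run: 0 loci in all 12 settings, 0 transcripts in all 12 and, for the 6251-base circle, 0 in all 11. At an unadjusted p under 0.05, 1 locus passed only without control 2, and the 6251-base circle only without triptolide Y. XLOC_166264 ranged from −1.32 to −1.44 (log2 fold change) over libraries left out. XLOC_172419 stayed negative, with adjusted p-values of 0.30 to 0.81, and a log2 fold change of −0.19 without control 1. XLOC_166238 also stayed negative, with adjusted p-values of 0.22 to 0.68. Where a control library was left out, the lone control is assumed to vary like the other group. The linear sum had a log2 ratio of −1.23 to −1.02 over libraries left out, −1.13 with TMM scaling and −0.43 without XLOC_166264. All but the last of these values include that locus, which was chosen for being lower after triptolide. The circular sum had −0.16 to 0.57 over libraries left out, 1.36 without its most abundant circRNA, and −0.40 without the 21092-base circle. Both the 1.36 and the −0.40 depend on the 21092-base circle, which was chosen for being listed at 0 in both control libraries. Requiring values above 0 in all libraries left the 21092-base and 4101-base circles without a fit.

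No paired analysis was possible because the triptolide columns of both tables, other than triptolide 3, carry no usable replicate number.

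Over all features, the 501 loci called by edgeR were 269 to 588 with 1 library left out. The 0 transcripts called by edgeR were 327 by DESeq2. The 0 circRNAs called were 36 with a single library above 0 required, 130 without control 2, 2 without control 1 and 1 with all libraries above 0. The cause was not tested. Depth limits the sparse loci and circles, most of which have 5 reads or fewer per library.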

Other observations

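Some listed genes also gave their symbol to a lncRNA locus. Among the HECT ligases these were 5 tested loci, 0 of them called by edgeR, beside 7.27% of all loci tested. Their median log2 fold change was −0.17. Of the 2 Hecw1 loci, XLOC_045687 averaged 165 CPM in triptolide libraries and 204 CPM in control libraries, and the Trip12 locus XLOC_002702 averaged 165 and 187 CPM. The loci of Hectd2 and Hectd4 had the higher mean in triptolide libraries, at 24.9 against 21.4 CPM and 35.2 against 27.5 CPM. The locus of Tjp1, a tight junction gene of the block conserved with 15q11-q13, averaged 399.7 CPM in triptolide libraries and 384 CPM in control libraries. That of Psmd4, a proteasome subunit that binds ubiquitin chains, averaged 31.8 CPM in triptolide libraries and 25.7 CPM in control libraries. None of these differences passed the edgeR test, with adjusted p-values of 0.41 to 0.89.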
